A study of Mus musculus with 9 samples.

Results

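Messenger RNAs of 9 decapping and 5'-3' decay factors were followed in an RNA immunoprecipitation sequencing (RIP-seq) experiment on the phosphorylated form of UPF1 (p-UPF1) in mouse B cells. The factors were Dcp1a, Dcp1b, Dcp2, Edc3, Edc4, Xrn1, Ddx6, Pnrc1 and Pnrc2, chosen by name through their NCBI Gene numbers. All 9 were found among the 27179 gene numbers of the count table, and all 9 were among the 13129 genes with enough counts to be tested. RIP-seq sequences the RNA that comes down with an antibody, and so gives the recovery of an mRNA with p-UPF1 rather than its expression. Spleen B cells of wild-type mice, purified as CD43- cells, were activated for 72 h with CD40L (5 ug/mL), anti-IgM antibody (10 ug/mL) and IL-4 (20 ng/mL) as the labels have it, while the study's methods name an antibody to CD40 in place of the ligand. There were 3 libraries from the lysate (input), 3 from the precipitate with normal rabbit IgG and 3 from the precipitate with an antibody to p-UPF1, all from cells of the same genotype and treatment. The study's methods give 8 to 16 weeks as the age of its mice in general, of both sexes, and none for this experiment. The study's statistics section calls the data points in its graphs independent biological replicates in general, but whether these libraries came from separate mice is not given in the sources used here, so p-values measure the spread between these libraries, which may be technical.

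Most cytoplasmic mRNAs are degraded either from the 3' end or by removal of the 5' cap followed by digestion from the 5' end. DCP2 is the enzyme that cuts the cap, DCP1A and DCP1B are alternative partners that activate it, EDC3 and EDC4 are enhancers and scaffolds of decapping, DDX6 is a DEAD-box helicase of P-bodies that joins translational repression to decapping, and XRN1 is the cytoplasmic exoribonuclease that digests the uncapped RNA. In nonsense-mediated mRNA decay (NMD), UPF1 is phosphorylated on RNAs where translation ended in an unfavourable context, and PNRC2 can bridge p-UPF1 to DCP1A, while its paralog PNRC1 is a largely nuclear protein that also binds decapping factors.

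Library totals ran from 17372510 counts (IgG) to 24945286 (input). The 6 B cell markers summed to 3200 to 3223 CPM (counts scaled to the library size after TMM, edgeR's adjustment for library composition) in input, 2494 to 2584 in IgG libraries and 2398 to 2471 in p-UPF1 libraries. The 5 T cell markers summed to at most 0.917 CPM and the 3 erythroid markers to at most 0.084 CPM, with Hba-a1 and Hbb-bs at 0, so the labelled cell type was the one whose markers were abundant. The 5 myeloid markers summed to 127 to 139 CPM in input, 85.9 to 91.6 with IgG and 57.2 to 59.3 with p-UPF1. Almost all of that was Adgre1, and Lyz2, Itgam, Csf1r and S100a8 were each under 0.31 CPM in every group. The part of these marker differences in the results was not tested. In a lysate, which is a bulk sample, fewer cells of a type and less RNA per cell cannot be told apart. The IgG libraries were the least alike. The pairs holding library A differed with a chi-square per degree of freedom of 9.89 and 9.94, against 4.64 for the other pair, 1.38 to 1.73 in input and 2.83 to 4.04 in p-UPF1 libraries.

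The 9 mRNAs were recovered very unequally with p-UPF1. Dcp1a, Pnrc2 and Edc3 were more than 2-fold higher with p-UPF1 than with IgG and than in input, and Ddx6 was higher by less. Pnrc1 was 2.98-fold lower than with IgG and 3.94-fold lower than in input. Edc4 was slightly lower than both backgrounds, and Xrn1 was 1.46-fold lower than with IgG and 1.16-fold lower than in input. Dcp2 and Dcp1b took opposite signs against the 2 backgrounds, where the difference of Dcp1b from input did not pass the test. These directions are relative to the bulk of genes, which TMM scaling sets near 0 (median log2 fold change, log2FC, -0.03 over IgG and -0.03 over input). When the mRNAs encoded by the mitochondrial genome were made equal in all libraries instead, the median gene moved to 4.66 over IgG and 5.00 over input and all 9 mRNAs were higher with p-UPF1.

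By edgeR's quasi-likelihood test (adjusted P under 0.05 over all genes tested), 5 of 9 were higher with p-UPF1 than with IgG, where 40.4% of all genes were, and 4 of 9 were lower, where 42.2% were; scaled to equal mitochondrial mRNA the counts became 9 and 0. Over input, 5 of 9 were higher (40.8% of all genes) and 3 of 9 were lower (42.6%), which likewise became 9 and 0. On the scale of equal mitochondrial mRNA, 99.97% of all called genes over IgG and 99.95% over input were higher. Most genes tested were called in one direction or the other, so a call alone does not set these mRNAs apart. A log2FC of at least 1 with an adjusted P under 0.05 was reached by 3 of 9 over IgG (22.2% of all genes) and by the same 3 over input (22.5%), namely Dcp1a, Edc3 and Pnrc2. With a TMM reference from IgG or with no low-count filter Ddx6 was past 1 over input too, which made 4 of 9. Lower by a log2FC of at least 1 were 2 of 9 over IgG (Dcp2 and Pnrc1, where 21.9% of all genes were) and 1 of 9 over input (Pnrc1, where 24.5% were). Dcp2 was close to this limit, and the count over IgG was 1 without IgG library B (Dcp2 at -0.96) and 1 without IgG library C (-0.92). The study calls an RNA p-UPF1-bound when its log2FC reaches 1 over IgG and also 2 over input. The limit over input was passed by 1 of 9 (6.31% of all genes), while 0 of 9 were lower by as much (9.67%). Pnrc1 was close to that, and the 0 became 1 without input library A (-2.01), with upper-quartile factors (-2.04) and with library size alone (-2.02). Dcp1a alone among the 9 met both limits, against 6.25% of all genes tested. The libraries of the groups did not overlap for any of the 9 in either comparison, which was so for 82.1% of all genes against IgG and 88.2% against input. The median log2FC of the 9 was 0.40 over IgG and 0.42 over input, and their range was -1.57 to 2.21 and -1.98 to 2.29. Both comparisons use the same 3 p-UPF1 libraries and are therefore not independent.

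**Figure D1:**
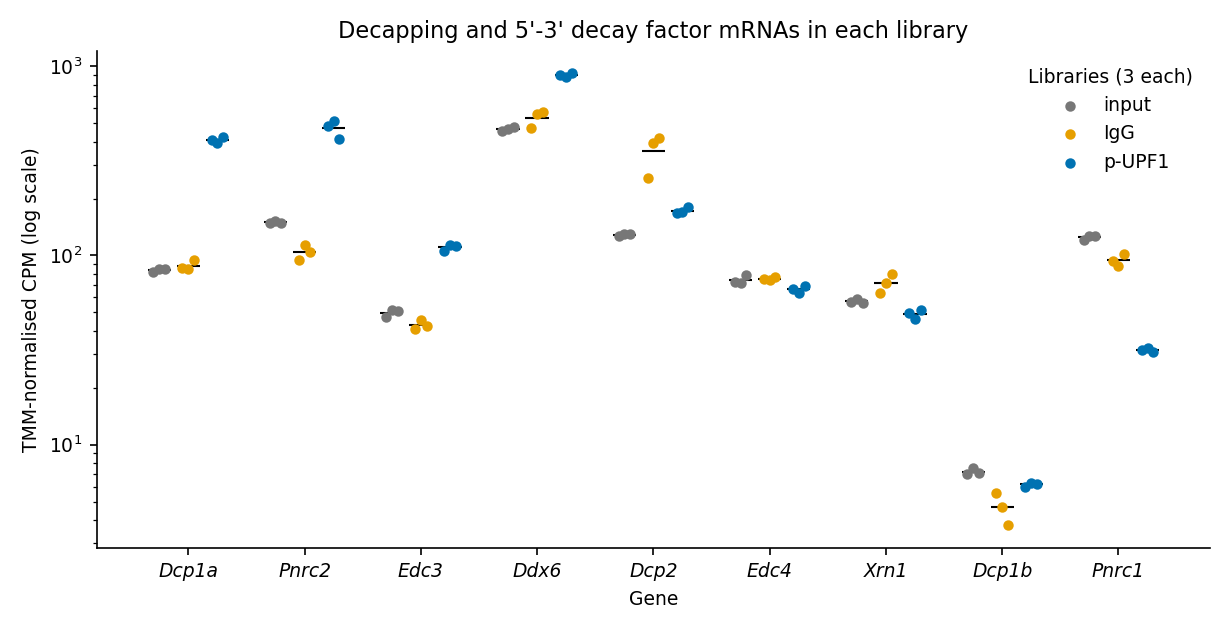
TMM-normalised CPM (log axis) of the 9 mRNAs in each of the 9 libraries, 3 per group, with points for libraries and bars for group means. Dcp1a, Pnrc2, Edc3 and Ddx6 have their p-UPF1 points above all others, Pnrc1 has them below, and Dcp2 has its IgG points above both other groups; the values are relative to the TMM scale, and on the scale of equal mitochondrial mRNA all 9 were higher with p-UPF1.

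Taken as counts in the raw libraries, the 9 mRNAs together made up 0.112% ± 0.00182 of all counts in input, 0.146% ± 0.0156 with IgG and 0.211% ± 0.00190 with p-UPF1 (SD, n = 3). Within that sum Ddx6 took about the same share everywhere, 40.9% ± 0.269 in input, 39.1% ± 0.682 with IgG and 40.7% ± 1.07 with p-UPF1. The other shares did not keep their order. Dcp1a went from 7.32% ± 0.0404 in input to 18.4% ± 0.672 in p-UPF1 libraries and Pnrc2 from 13.1% ± 0.264 to 21.2% ± 2.28, whereas Pnrc1 went from 10.9% ± 0.130 to 1.43% ± 0.0284. In IgG libraries the mRNA with the largest gain in share over input was Dcp2, at 25.7% ± 3.54 against 11.3% ± 0.0797.

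Among the partners of DCP2, Dcp1a was the mRNA recovered most with p-UPF1 and Dcp1b was scarce in all groups. Dcp1a measured 82.0, 84.5 and 84.3 CPM in input, 85.7, 84.5 and 94.4 CPM with IgG and 407, 396 and 422 CPM with p-UPF1. All 3 p-UPF1 libraries were thus far above a common level of input and IgG. The group means were 83.6 ± 1.42, 88.2 ± 5.41 and 408 ± 13.04 CPM (SD, n = 3). The log2FC was 2.21 (SE 0.05, adjusted P = 2.09e-16, edgeR) or 4.63-fold over IgG, and 2.29 (SE 0.05, adjusted P = 1.10e-16) or 4.88-fold over input. IgG and input were not called different for Dcp1a (log2FC 0.08, adjusted P = 0.199). For comparison, Upf1 itself had a log2FC of 2.08 over IgG and 2.04 over input, and Smg5, an NMD factor whose own mRNA is a known NMD target, had 2.62 and 2.63.

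Dcp1b measured 6.98, 7.52 and 7.08 CPM in input, 5.58, 4.69 and 3.75 CPM with IgG and 5.98, 6.28 and 6.21 CPM with p-UPF1, from 73 to 172 counts a library. The p-UPF1 libraries lay between the input libraries, all higher, and the IgG libraries, all lower. The log2FC over IgG was 0.40 (SE 0.15, adjusted P = 0.0194, edgeR), and the call was lost without IgG library C (0.26, adjusted P = 0.0821), with upper-quartile factors (0.26, adjusted P = 0.114), with library size alone (0.24, adjusted P = 0.153), with an input library as TMM reference (0.31, adjusted P = 0.0593) and with only the 2 groups in the fit (0.39, adjusted P = 0.0538). Over input the log2FC was -0.22 (SE 0.14, adjusted P = 0.140), which did not pass the test.

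The Dcp1a to Dcp1b ratio of counts within a library needs no scaling between libraries. It was 11.6 ± 0.348 in input, 19.5 ± 5.10 with IgG and 66.3 ± 2.82 with p-UPF1 (SD, n = 3), with no overlap between groups. On the log2 scale the mean ratio was higher by 1.80 in p-UPF1 than in IgG libraries and by 2.51 than in input, each with an exact two-sided permutation p of 0.1, the smallest that 3 against 3 libraries can give (0.129 after Benjamini-Hochberg adjustment over the 9 tests of 3 pairs and 3 comparisons). The longest run of bases that the paralogs' transcripts share is 15, so reads longer than that are not identical between them.

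Since NMD is decided where translation ends, the stop codons of both partners are shown with the last 15 coding bases and the first 12 bases after the stop, with the stop codon in capitals. Both are on the plus strand of GRCm38, the Dcp1a window at chr14:30523289-30523318 and the Dcp1b window at chr6:119220063-119220092, with sequence and transcript models from RefSeq (GRCm38.p6).
Dcp1a: gacaaccacaacctaTGActgcagtgaagg
Dcp1b: gccatgagaaccacgTAAccagctacatga
Only 5 of the 15 coding bases match. Dcp1a ends in TGA, as do 51.7% of the 11904 coding genes compared, and Dcp1b in TAA, as do 25.03%. The 3' UTR after the stop is 3750 bases long in Dcp1a, longer than in 92.5% of genes, and 1534 bases in Dcp1b (64.7%). The Dcp1a gene (chr14:30479486-30527056) overlaps Cacna1d on the other strand over 11671 bases and the lncRNA Gm35566 on the same strand, and Dcp1b (chr6:119175253-119221614) lies across from Cacna1c over 22132 bases. Cacna1d had 829 counts and Cacna1c 15 counts in all 9 libraries together.

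The PNRC pair was split more widely than the other two paralog pairs examined. Pnrc2, the mRNA of the bridge between p-UPF1 and DCP1A, measured 149, 152 and 149 CPM in input, 94.8, 114 and 104 CPM with IgG and 486, 513 and 411 CPM with p-UPF1. Its p-UPF1 libraries were the highest and its IgG libraries the lowest, with no overlap. The log2FC was 2.17 (SE 0.07, adjusted P = 5.99e-14, edgeR) or 4.51-fold over IgG. Over input it was 1.65 (SE 0.07, adjusted P = 1.39e-12) or 3.13-fold, short of the limit of 2. Pnrc2 was lower in IgG than in input (log2FC -0.53, adjusted P = 2.06e-05), so that the 2 backgrounds gave different sizes for it.

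Pnrc1 measured 121, 127 and 127 CPM in input, 93.1, 87.6 and 102 CPM with IgG and 31.6, 32.4 and 30.9 CPM with p-UPF1. Every p-UPF1 library was below every IgG library, and these were below every input library. The log2FC was -1.57 over IgG (SE 0.06, adjusted P = 1.59e-13, edgeR), and against input it was -1.98 (SE 0.06, adjusted P = 5.67e-15), and both values turned positive (3.12 and 3.06) on the scale of equal mitochondrial mRNA, still below the median gene there. Pnrc1 was the lowest of the 9 in both comparisons. IgG was lower than input by less (log2FC -0.41, adjusted P = 8.85e-06).

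The ratio of Pnrc1 to Pnrc2 counts in the same library was 0.830 ± 0.0220 in input and 0.910 ± 0.121 with IgG, but 0.0678 ± 0.00638 with p-UPF1 (SD, n = 3). Similar numbers of reads from both mRNAs in the backgrounds thus stood against a large excess of Pnrc2 with p-UPF1. The log2 difference was -3.74 from IgG and -3.62 from input (exact permutation p = 0.1 each, the smallest possible; 0.129 adjusted). IgG and input overlapped (log2 difference 0.12, exact permutation p = 0.4). The ratio of Xrn1 to Xrn2, the cytoplasmic and nuclear exoribonucleases, gave a contrasting case: 0.214 ± 0.000718 in input, 0.301 ± 0.0275 with IgG and 0.303 ± 0.0189 with p-UPF1. The log2 difference of that ratio between p-UPF1 and IgG was 0.01 (exact permutation p = 0.9), while both precipitates were above input, by 0.50 and 0.49 (exact permutation p = 0.1 each). Shared runs of the transcripts reach 12 bases for Pnrc1 and Pnrc2 and 16 for Xrn1 and Xrn2.

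**Figure D2:**
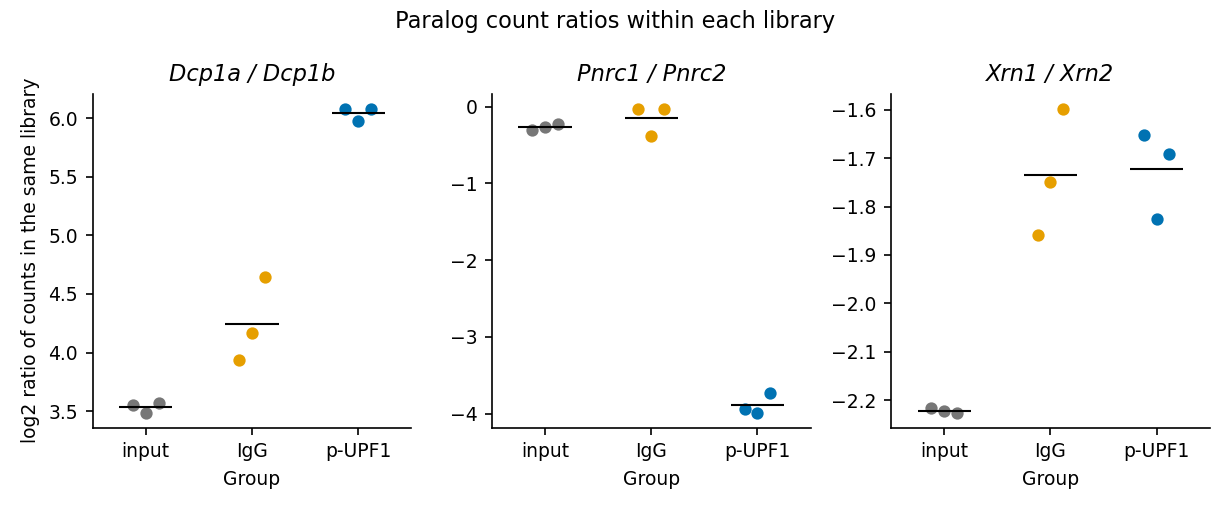
Log2 ratio of counts of Dcp1a to Dcp1b, Pnrc1 to Pnrc2 and Xrn1 to Xrn2 in each library by group (each panel has its own axis, points are libraries, bars are means of 3). The p-UPF1 libraries stand apart for Dcp1a to Dcp1b (ratio 66.3 against 11.6 in input) and for Pnrc1 to Pnrc2 (0.0678 against 0.830), and lie with the IgG libraries for Xrn1 to Xrn2.

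The PNRC transcripts are close in length, 1925 and 1907 bases, and both are on the minus strand of chromosome 4 (GRCm38). Their stop codons are shown in the same way as above, the Pnrc1 window at chr4:33246052-33246081 and the Pnrc2 window at chr4:135872002-135872031, because recovery of this pair differed most while the coding ends are alike.
Pnrc1: ctcaaggtgcagaccTAGgcttgcgtctgc
Pnrc2: cttaaggtacaggtaTAAagttagtaggtg
Of the 15 coding bases 10 match, whereas the stop codon is TAG in Pnrc1 and TAA in Pnrc2. The 3' UTR is 641 bases in Pnrc1 (longer than in 35.7% of genes) and 1088 bases in Pnrc2 (52.5%). Both 3' UTRs are poor in G and C, at 36.0% in Pnrc1 and 34.2% in Pnrc2, with lower values in 13.8% and 8.49% of genes. The 5' UTRs of 390 and 396 bases hold 1 and 2 ATG triplets, where 48.5% of genes hold at least 1.

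The enhancers of decapping went different ways. Edc3 measured 47.1, 51.4 and 50.7 CPM in input, 40.8, 45.8 and 42.1 CPM with IgG and 106, 113 and 112 CPM with p-UPF1. The p-UPF1 libraries were all above the others. The log2FC was 1.36 (SE 0.06, adjusted P = 6.78e-13, edgeR) or 2.57-fold over IgG, and 1.15 (SE 0.05, adjusted P = 4.19e-12) or 2.22-fold over input. Edc4, the large scaffold, measured 72.5, 71.4 and 78.5 CPM in input, 74.8, 74.2 and 77.4 CPM with IgG and 66.9, 63.7 and 68.98 CPM with p-UPF1. The p-UPF1 libraries were the lowest, by a small margin. The log2FC of Edc4 was -0.18 over IgG (SE 0.05, adjusted P = 3.68e-03), and against input it was -0.16 (SE 0.05, adjusted P = 0.0102), and both values turned positive (4.51 and 4.88) on the scale of equal mitochondrial mRNA. Over input the call was lost without p-UPF1 library B (-0.13, adjusted P = 0.0533) and without input library C (-0.12, adjusted P = 0.0599). It was also lost with DESeq2 size factors (adjusted P = 0.0548), by DESeq2 (0.0757), with an IgG library as TMM reference (-0.03, adjusted P = 0.617), with no filter on low counts (-0.02, adjusted P = 0.760) and at a threshold of 0.01.

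Ddx6 was the most abundant of the 9 by CPM. It measured 458, 466 and 476 CPM in input, 472, 557 and 576 CPM with IgG and 902, 879 and 919 CPM with p-UPF1. The p-UPF1 libraries were the highest, while input and IgG overlapped. The log2FC was 0.75 over IgG (SE 0.06, adjusted P = 2.37e-09, edgeR; 0.67 without IgG library A), and against input it was 0.95 (SE 0.06, adjusted P = 9.76e-11). The latter was 1.07 with a TMM reference from IgG and 1.08 with no low-count filter. Ddx6 (chr9:44602983-44640731) is the only one of the 9 whose RefSeq transcript has an intron after the stop codon. That intron follows the stop by 7 bases, and an intron more than 50 bases after the stop was annotated in 0.294% of coding genes and in none of the 9. Its 3' UTR of 4250 bases is longer than in 94.9% of genes, and its 5' UTR holds 3 ATG triplets.

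Dcp2, the decapping enzyme itself, was the mRNA of the 9 with the largest difference between IgG and input. It measured 127, 129 and 129 CPM in input, 256, 395 and 417 CPM with IgG and 167, 169 and 180 CPM with p-UPF1. Every IgG library was above every p-UPF1 library, and these were above every input library. The log2FC of IgG over input was 1.47 (SE 0.12, adjusted P = 7.32e-08, edgeR) or 2.77-fold, larger than in 99.0% of genes tested. Over IgG, p-UPF1 had a log2FC of -1.05 (SE 0.12, adjusted P = 4.29e-07), which turned to 3.64 on the scale of equal mitochondrial mRNA. Over input it had 0.42 (SE 0.12, adjusted P = 4.53e-03).

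The IgG libraries also differed most among themselves for Dcp2. Their coefficient of variation was 24.5%, higher than for 98.7% of the 8992 genes at 10 CPM or more on average. The median over those 8992 genes was 6.43%. IgG library A was lower than the mean of B and C by a log2 difference of -0.66, and 0.300% of genes were lower still. The log2FC of Dcp2 over IgG was -1.24 without library A (adjusted P = 1.40e-16, edgeR), -0.96 without B (adjusted P = 1.18e-05) and -0.92 without C (adjusted P = 2.83e-06). That of IgG over input was 1.65, 1.38 and 1.33 in the same order. The 3' UTR of Dcp2 is 7240 bases, longer than in 99.4% of genes.

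Xrn1 measured 57.1, 58.6 and 55.8 CPM in input, 63.1, 71.3 and 80.2 CPM with IgG and 49.6, 46.2 and 51.4 CPM with p-UPF1. The 3 groups did not overlap, with IgG highest and p-UPF1 lowest. The log2FC was -0.54 over IgG (SE 0.07, adjusted P = 3.03e-06, edgeR; -0.63 without IgG library A), and against input it was -0.22 (SE 0.07, adjusted P = 0.0112), and both values turned positive (4.15 and 4.82) on the scale of equal mitochondrial mRNA. The call over input was lost without p-UPF1 library B (-0.18, adjusted P = 0.0602), with an IgG library as TMM reference (-0.09, adjusted P = 0.232), with no filter on low counts (-0.09, adjusted P = 0.245) and at a threshold of 0.01. IgG exceeded input (log2FC 0.32, adjusted P = 1.28e-03). Xrn1 faces the lncRNA Gm16794 on the other strand, which had 189 counts in all libraries together.

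**Figure D3:**
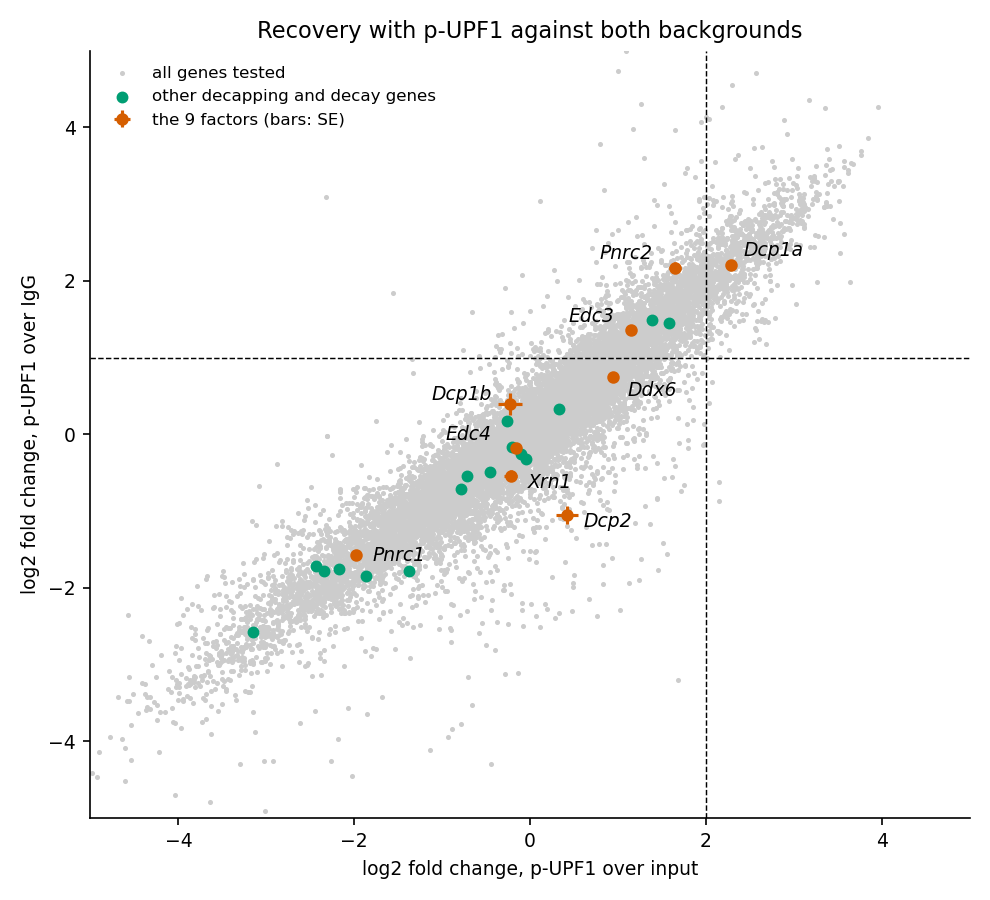
Log2 fold change of p-UPF1 over input (x axis) and over IgG (y axis), both against the same 3 p-UPF1 libraries, for all genes tested (grey), 16 other decapping and decay genes (green) and the 9 factors (orange, bars are SE); dashed lines mark the study's limits of 1 and 2, and genes beyond the axes are not drawn. Dcp1a is the single orange point past both limits, Pnrc2 is past the limit over IgG at 1.65 over input, and Dcp2 lies off the main cloud at 0.42 over input and -1.05 over IgG; on the scale of equal mitochondrial mRNA all 9 lie above 0.

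Ordered by recovery over input, the 9 ran from Dcp1a through Pnrc2, Edc3, Ddx6 and Dcp2 to Pnrc1. Edc4, Xrn1 and Dcp1b stood between Dcp2 and Pnrc1, and their ranges over the p-UPF1 libraries overlapped. Over IgG, Dcp1a and Pnrc2 overlapped at the top. Below them came Edc3, Ddx6, Dcp1b, Edc4, Xrn1, Dcp2 and Pnrc1 with no overlap between neighbours. These ranges hold the spread of the p-UPF1 libraries against the mean of each background, and not the spread of the backgrounds themselves. IgG against input was called higher for Dcp2, Ddx6 and Xrn1 (3 of 9, where 18.2% of all genes were) and lower for Dcp1b, Edc3, Pnrc1 and Pnrc2 (4 of 9, where 34.7% were). Dcp2 alone was higher by a log2FC of at least 1 (1 of 9, where 2.07% of all genes were), 0 of 9 were higher by at least 2 (0.472%), and 0 of 9 were lower by at least 1 (2.16%). Input and IgG libraries did not overlap for 6 of 9 (58.2% of all genes). With library size alone, 5 of 9 were higher, Dcp1a and Edc4 being added, and of all called genes 52.6% rather than 34.4% were higher in IgG. The call for Ddx6 (log2FC 0.20, adjusted P = 8.18e-03, edgeR) was lost without IgG library B (adjusted P = 0.0508) or C (adjusted P = 0.0680). The call for Edc3 (log2FC -0.21, adjusted P = 6.37e-03) was lost with library size alone (adjusted P = 0.161), with a TMM reference from input (0.156) or from IgG (0.121), with no filter on low counts (0.127) and with only the groups compared in the fit (0.181).

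Levels of different genes were compared per kilobase of annotated exon (CPM per kb). In input Pnrc1 (64.8 ± 1.78), Pnrc2 (64.7 ± 0.876) and Ddx6 (57.0 ± 1.13) were the most abundant (SD, n = 3), the first pair overlapping. With the longest coding transcript as the length, Ddx6 came first at 73.9 CPM per kb. Edc4, Dcp2, Dcp1a and Edc3 followed at 15.4, 14.9, 14.7 and 14.3 CPM per kb with overlap between neighbours, then Xrn1 at 4.51 and Dcp1b at 1.85 CPM per kb. In p-UPF1 libraries no neighbours overlapped: Pnrc2 had 202.6 CPM per kb, Ddx6 110.0, Dcp1a 71.7, Edc3 31.7, Dcp2 19.9, Pnrc1 16.4, Edc4 13.8, Xrn1 3.88 and Dcp1b 1.58. Pnrc1 thus went from place 1 in input (place 3 by the longest coding transcript) to place 6 with p-UPF1.

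**Figure D4:**
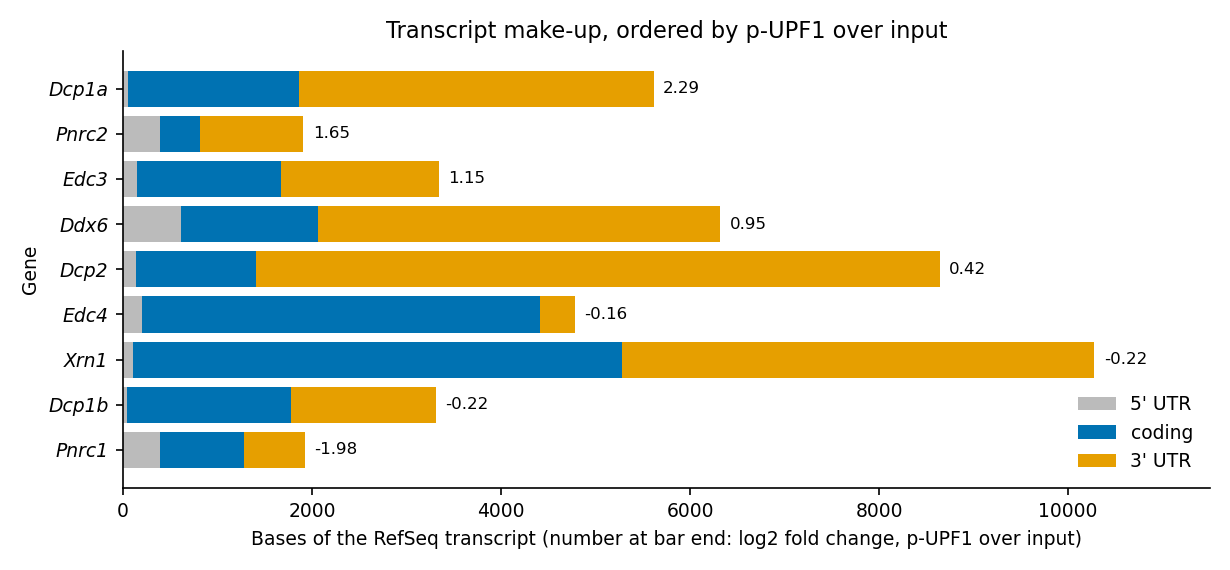
Bases of 5' UTR, coding sequence and 3' UTR in the RefSeq transcript (GRCm38.p6) of each of the 9 mRNAs, ordered by log2 fold change of p-UPF1 over input, printed at the bar ends. Long 3' UTRs are found at the top (Dcp1a, 3750 bases) and further down (Dcp2, 7240 bases; Xrn1, 4997 bases); the signs of the values are those of TMM scaling and were all positive on the scale of equal mitochondrial mRNA.

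The longest 3' UTRs belong to Dcp2 (7240 bases), Xrn1 (4997), Ddx6 (4250) and Dcp1a (3750), each longer than in at least 92.5% of genes, and these took log2FCs over input of 0.42, -0.22, 0.95 and 2.29. Edc3, with 1668 bases, and Dcp1b, with 1534 bases, are near each other and had 1.15 and -0.22. The shortest is that of Edc4, 363 bases, where the log2FC was -0.16. Next come those of Pnrc1, 641 bases, at -1.98 and Pnrc2, 1088 bases, at 1.65. No test of length against recovery was run. The median over coding genes tested was 1015 bases.

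Likeness of profile over the 9 libraries was the Euclidean distance of centred log2 CPM, among 8991 genes at 10 CPM or more on average. The mRNAs nearest to Dcp1a, the most recovered of the 9 over input, were Pofut1 (0.0928), Csnk1d (0.116) and Tmem127 (0.145). Those nearest to Pnrc1, the least recovered, were Nipsnap3b (0.119), Epsti1 (0.132) and Fkbp1a (0.164).

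A wider list held 16 other genes of decapping and 5'-3' decay, all tested. It comprised the LSM1 to LSM7 ring, which binds the 3' end of deadenylated mRNA and activates decapping, its partner Patl1, the DDX6 partners Lsm14a, Lsm14b and Eif4enif1, the Nudix hydrolases Nudt16 and Nudt3, which also cut caps, the scavenger enzyme Dcps, the nuclear exoribonuclease Xrn2, and Dxo, which removes aberrant caps. None of the 16 met both limits for a p-UPF1-bound RNA, which 6.25% of all genes tested did. By edgeR (adjusted P under 0.05), 3 of 16 were higher and 11 lower over IgG (40.4% and 42.2% of all genes). Over input 3 were higher and 12 lower (40.8% and 42.6% of all genes). On the scale of equal mitochondrial mRNA all 16 were higher in both, as were 99.97% and 99.95% of all called genes. The 12 lower than input became 9 to 12 with other settings on the scale of most genes, with 9 without input library B, and the calls lost were those of Lsm1, Dxo and Eif4enif1. Eif4enif1 turned from -0.10 to 0.03 with a TMM reference from IgG and to 0.03 with no low-count filter. The median log2FC was -0.52 over IgG and -0.59 over input.

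The 3 higher ones, named after their values were seen, were Nudt3, Nudt16 and Patl1. Nudt16 measured 15.9, 15.4 and 17.1 CPM in input, 17.2, 18.3 and 17.1 CPM with IgG and 49.8, 49.5 and 45.1 CPM with p-UPF1. All p-UPF1 libraries were above all others, and the log2FC of 1.58 over input was the highest of the list (SE 0.07, adjusted P = 1.39e-12, edgeR). Nudt3 had the highest log2FC over IgG, 1.48 (SE 0.04, adjusted P = 7.25e-15). Nudt16 was close to it there, at 1.46 (SE 0.07), nearer than its SE. Patl1 had 0.33 in both comparisons. At the other end, Lsm5 measured 27.1, 30.8 and 28.7 CPM in input, 23.2, 19.2 and 15.8 CPM with IgG and 3.45, 3.16 and 3.08 CPM with p-UPF1. Its log2FC was -2.58 over IgG (SE 0.14, adjusted P = 3.30e-11), and against input it was -3.15 (SE 0.14, adjusted P = 1.15e-12), relative to the bulk of genes. Over input all 7 ring genes were lower, where 42.6% of all genes were, and over IgG 6 of 7 were (42.2% of all genes), Lsm1 not passing the test; both counts are on the TMM scale. Lsm1 had the smallest difference from input among the 7, -0.27 (adjusted P = 0.0127). Its call over input was lost, leaving 6 of 7, without input library B (adjusted P = 0.0746), without p-UPF1 library C (0.0538), with a TMM reference from IgG (0.158), with no low-count filter (0.297) and in DESeq2 (0.0547). Over IgG it passed the test as higher without IgG library C (log2FC 0.22, adjusted P = 0.0468).

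**Figure D5:**
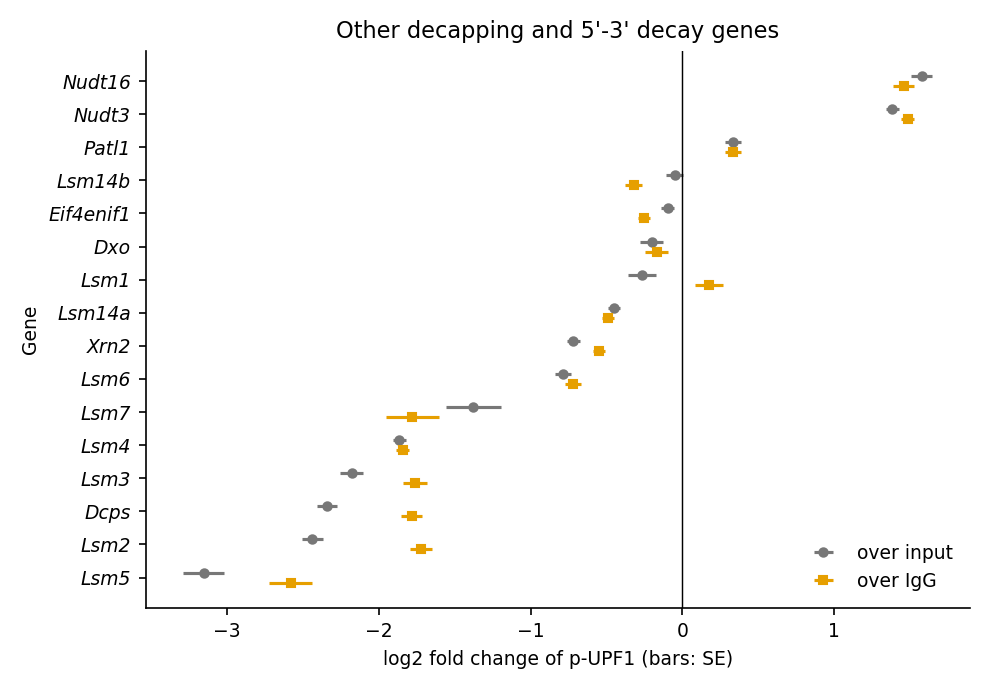
Log2 fold change of p-UPF1 over input (grey circles) and over IgG (orange squares) for the 16 other decapping and 5'-3' decay genes, with SE as bars; the p-UPF1 libraries are the same in both. Nudt16 and Nudt3 are near 1.5 and Lsm5 is lowest (-3.15 and -2.58) on the TMM scale, while on the scale of equal mitochondrial mRNA all 16 were above 0.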

How the data were processed

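According to the labels, RNA was prepared from lysates and precipitates, made into libraries with a directional kit, and sequenced. The submitters' processing notes name cutadapt, HISAT2, featureCounts and mm10, without versions. Whether strand was used in counting the RIP-seq reads is not given in the sources used here; if it was not, a gene and one facing it on the other strand share reads where they overlap. The authors deposited raw read counts for each NCBI Gene number, with a column for each library, unscaled and without molecular identifiers, so counting error understates the true error. Columns carry letters where the labels number replicates, and each was assigned to its group only.

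Of 27179 gene numbers, 25201 matched a symbol in RefSeq's GRCm38.p6 annotation and 6969 had no count. Genes were kept with edgeR 4.0.16 filterByExpr (minimum count 10, minimum total 15), leaving 13129 genes with 99.9% of counts. Counts were scaled by TMM, and a model of the 3 groups was fitted to all 9 libraries (6 residual degrees of freedom). Contrasts were tested by edgeR's quasi-likelihood test, two-sided, with Benjamini-Hochberg adjustment over all genes tested (adjusted P). Log2FCs carry a prior count of 0.125, and SEs come from the test statistic. CPM are TMM-normalised. Paralog ratios carried 0.5 added counts on the log2 scale and were tested by exact permutation. The pipeline was tested on simulated data. In those data most genes were unchanged and the changes up and down were balanced, so they cannot test the choice of scaling. No deposited column of another sample was present.

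The 9 mRNAs, the list of 16 and the markers were chosen with earlier results of these data known. Named were all 9, the highest and lowest of the 16, and Upf1 and Smg5. Also named were the 3 nearest profiles of the most and least recovered of the 9 over input. UTR and coding lengths are those of the curated RefSeq transcript with the longest coding sequence, and positions are counted from 1. Alternatives were other scalings (DESeq2 1.42.0 size factors, upper quartile, library size, other TMM references, mitochondrial mRNA), filters, tests (DESeq2, limma 3.58.1 voom, glmTreat), groups in the fit, prior count, threshold, pseudocount, length, leaving out each library and, added later, the column letter as a block.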

Additional observations from a re-analysis of the deposited data

How the results depend on the processing

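Of the 27 log2FCs of the 9 mRNAs (3 comparisons each) under 23 alternatives, 572 values kept their direction and side of the threshold, 27 lost the call, 11 gained one and 11 reversed. Edc4, near 0 and not called for IgG over input (0.03), turned to -0.0066 without input library B and -0.00096 without IgG library C, in a range up to 0.0587 with single libraries left out. The other 9 reversals came with scaling to equal mitochondrially encoded mRNA, where the median gene itself moved to 4.66 over IgG, 5.00 over input and 0.24 for IgG over input. They were Dcp2 3.64, Edc4 4.51, Pnrc1 3.12 and Xrn1 4.15 over IgG, Dcp1b 4.81, Edc4 4.88, Pnrc1 3.06 and Xrn1 4.82 over input, and Edc3 0.13 for IgG over input. On that scale the counts of the 9 became 9 bound, 9 past the limit over IgG and 9 past that over input, 9 higher and 0 lower in both, and 5 higher and 0 lower for IgG over input. Those of the 16 other genes became 15 bound, 16 past the limit over IgG and 15 past that over input, 16 higher and 0 lower in both, and 11 higher and 2 lower for IgG over input. Of all called genes on that scale 99.97% over IgG, 99.95% over input and 84.8% for IgG over input were higher. The counts of higher mRNAs there do not set these genes apart. The share of all genes bound on that scale was not taken. Under every other alternative 1 of the 9, Dcp1a, was bound and none of the 16. IgG over input was called higher for 5 of the 9 and 5 of the 16 with library size alone and with a TMM reference from input or from IgG, and for 5 of the 16 with only the groups compared in the fit. Of all called genes in that comparison 52.6%, 51.2% and 50.2% were then higher, and 45.1% with upper-quartile factors, against 34.4%. The cause was not tested. Of the 9, 1 was lower than input with an IgG library as TMM reference, with no filter on low counts and at an adjusted P under 0.01, against 3. Leaving out single libraries gave 1 to 3, the 1 without p-UPF1 library B. Library size alone moved the median gene over IgG from -0.03 to -0.19.

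The columns carry letters, not the replicate numbers of the labels. With the column letter as a replicate block, an alternative chosen after seeing the data, no call of the 9 changed (Dcp2 over IgG -1.03), and of the 16 other genes 12 rather than 11 were lower than with IgG. Over all genes the calls went from 10845 to 10875 over IgG, from 10952 to 11002 over input and from 6950 to 7094 for IgG over input. Deviations of same-lettered libraries from their group means correlated at -0.0051 to 0.0542. In each comparison 2 of 3 libraries correlated best with their own letter, which does not settle whether the letters mark pairs. The study's methods took input from the same lysate that was then precipitated. Which libraries share a lysate is not given in the sources used here. The main tests and the permutation tests therefore took all libraries as unpaired, and any pairing by lysate is not used in them. Precision is limited by 3 libraries a group. The signs of the log2FCs are relative to the bulk of genes. The order of the 9 by recovery was the same with equal mitochondrial mRNA as with TMM, both over IgG and over input.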
